A study of Mus musculus with 12 samples.

Results

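The 6 genes Fgl2, Plxnc1, Sult5a1, Plcd3, Gm16288 and Gm17218 are described here in natural killer (NK) cells labelled as having Id2, Tcf7 or both deleted. They were picked from measured values, because their difference between Id2KO and control cells is reversed, or is of another size, when Tcf7 is deleted as well. They make up 6 of the 37991 genes in the expression table, each matched by its Ensembl gene ID, and all 6 are among the 12384 genes with enough signal to be fitted. Values from Ctrl, Id2KO and DKO cells made the choice, so the differences among those groups are given without a test. The comparison of Tcf1KO with Ctrl was not used to pick them, although its Ctrl libraries were.

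NK cells are innate lymphocytes that kill infected and transformed cells. Id2 is an inhibitor of DNA binding: it holds E proteins, a class of transcription factors that bind E-box motifs, in inactive pairs, and NK cells need it to mature. Tcf7 encodes TCF-1, a transcription factor of the TCF/LEF family that is high in early NK cells and declines as they mature. Among the 6 genes are a secreted immune regulator, a guidance receptor, a pair of enzymes and a pair of genes annotated as non-coding.

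RNA was taken from NK1.1+CD49b+ bone marrow cells that were sorted out of C57Bl/6 mice. The deleted groups carried Ncr1Cre, a recombinase made in cells that express the NK receptor gene Ncr1, and had either Id2 (Id2KO) or Tcf7 (Tcf1KO) flanked by loxP sites, or the pair of them (DKO). Ctrl cells came from mice that the treatment label gives as Id2F/F and the series text as Id2F/F or Id2F/FTcf7F/F, with no Cre named. Cre and the deletions therefore cannot be told apart in comparisons with Ctrl, and the ages of the mice are not given in the sources used here. Each group had 3 libraries, 12 in all, which the labels call independent without naming separate animals, so their spread, and p-values built on it, may be technical. In bulk RNA, fewer cells that express a gene and less RNA per cell cannot be told apart.

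Levels are fragments per kilobase of gene, scaled to library size (FPKM), as mean ± SD over n = 3 libraries, and differences between groups are of log2(FPKM + 1) and carry a standard error (SE); the added 1 makes changes of low genes look smaller. The libraries held between 13975523 and 20208160 reads on genes, recovered from the steps between FPKM values. Id2 was 152 ± 25.0 FPKM in Ctrl, 114 ± 11.6 in Tcf1KO, 18.0 ± 1.04 in Id2KO and 42.3 ± 6.08 in DKO, so DKO cells held more Id2 RNA than Id2KO cells (log2 difference 1.18 ± 0.16, adjusted p = 0.0205 by limma, higher in all 3 libraries). That call was kept in 8 of the 12 fits that each left out 1 library, and was lost without Id2KO 1, Id2KO 2, DKO 1 or DKO 2 (adjusted p up to 0.123 by limma). It was also lost with median scaling, with the replicate number as a block (adjusted p = 0.0534, limma), with only the compared groups, in voom (adjusted p = 0.112) and without the 3 libraries of lowest array weight (0.0628, limma). The part of this Id2 difference in the values of the 6 genes was not tested. Tcf7 was 40.9 ± 4.81 FPKM in Ctrl, 35.0 ± 4.65 in Tcf1KO, 84.8 ± 6.33 in Id2KO and 62.4 ± 9.94 in DKO, so the value of the whole gene does not check the Tcf7 labels. All 11 NK markers listed, Ncr1 among them, were above 0, and their summed level was between 2393 and 2539 FPKM in Ctrl, 1924 and 2283 in Tcf1KO, 1447 and 2096 in Id2KO, and 1907 and 2643 in DKO. By limma's array weights the libraries that stand apart most from their groups are Id2KO 3, DKO 3 and Ctrl 2, and results were also read without these 3, a choice made after seeing the data.

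**Figure D1:**
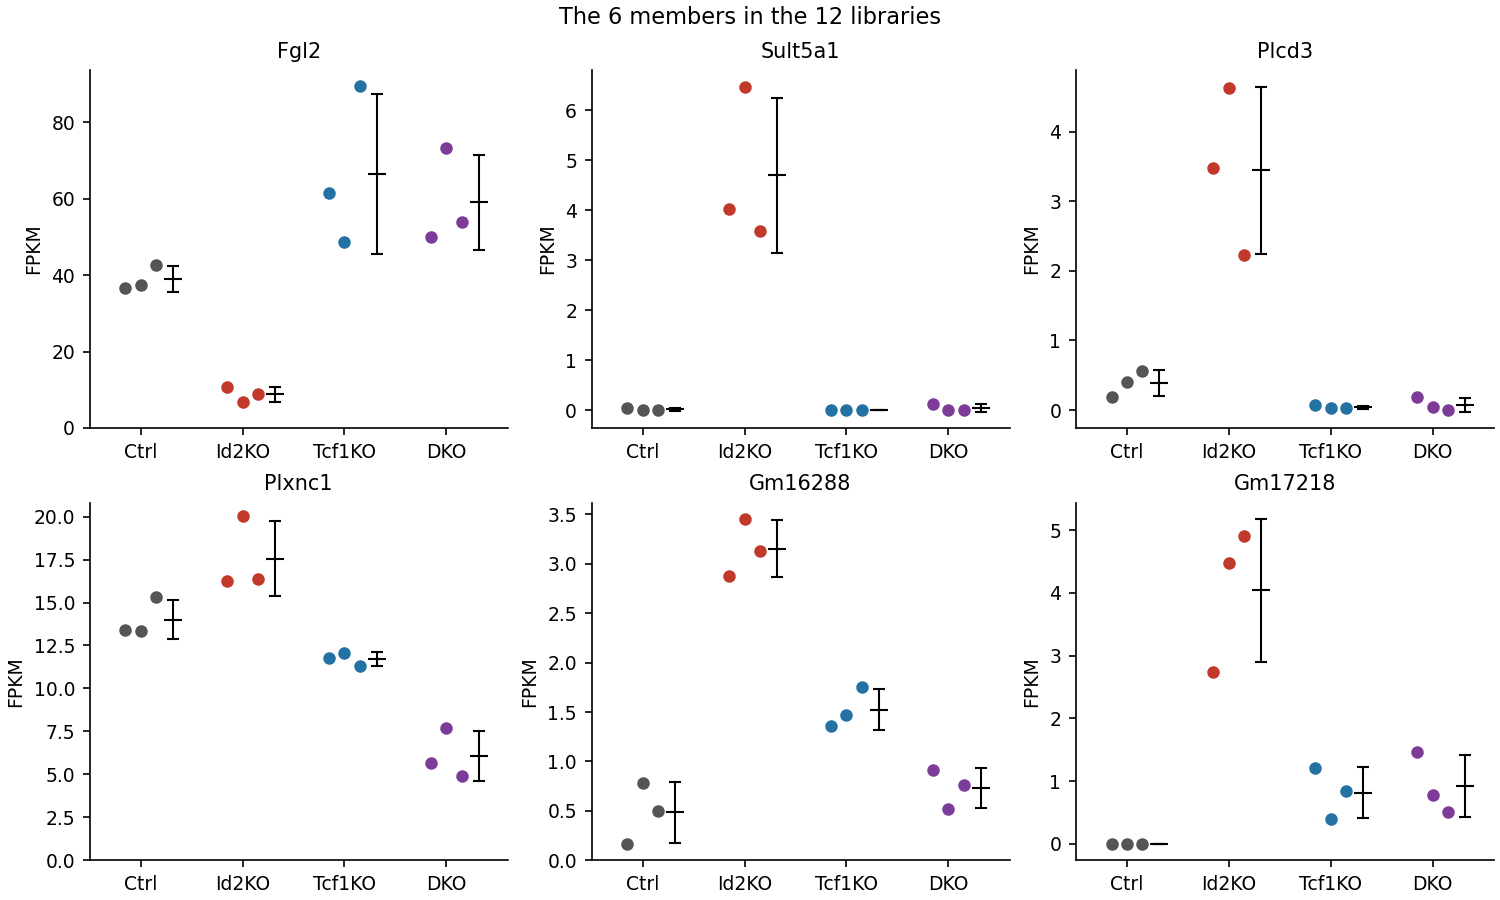
FPKM of the 6 genes (y axis, linear) in the 4 groups (x axis). Each point is 1 library, in the order of replicates 1 to 3, and the bars are the mean ± SD of 3 libraries. Fgl2 is lowest in Id2KO, Plxnc1 is lowest in DKO, and Sult5a1, Plcd3, Gm16288 and Gm17218 are highest in Id2KO.

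Fgl2 (ENSMUSG00000039899) encodes fibrinogen-like protein 2, which exists as a membrane form that cleaves prothrombin and as a secreted form that restrains immune cells. It lies on chromosome 5, 21372642 to 21378374, plus strand (GRCm38). It had the highest mean FPKM of the 6 in Ctrl, Tcf1KO and DKO, and its mean FPKM in Ctrl was above that of 95.1% of the fitted genes. In Ctrl libraries 1, 2 and 3 it stood at 36.6, 37.4 and 42.8 FPKM, and in Id2KO at 10.7, 6.83 and 8.75. Tcf1KO libraries held 61.6, 48.6 and 89.5 FPKM, and DKO libraries 49.97, 73.4 and 53.9. Every Id2KO library was below every other library, and every Tcf1KO and DKO library was above every Ctrl library. The mean was 38.9 ± 3.34 FPKM in Ctrl, 66.6 ± 20.9 in Tcf1KO, 8.75 ± 1.92 in Id2KO and 59.1 ± 12.5 in DKO.

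For Fgl2 the Id2KO level was thus 4.45-fold below Ctrl (log2 difference -2.05 ± 0.24) and the DKO level 6.75-fold above Id2KO (2.62 ± 0.24). Where Tcf7 was deleted in both groups compared, DKO against Tcf1KO, the difference was -0.14 ± 0.24 and the libraries overlapped. The interaction, the DKO to Tcf1KO difference less the Id2KO to Ctrl difference, was 1.91 ± 0.33. In reads, the group sums were 6872 in Ctrl, 13550 in Tcf1KO, 1519 in Id2KO and 10131 in DKO, so counting error is small beside these differences.

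Macrophages and monocytes also make Fgl2, so markers of other marrow cells were read in the same libraries. The 12 neutrophil markers summed to between 737 and 3150 FPKM in Ctrl, 1028 and 3640 in Tcf1KO, 12.3 and 750 in Id2KO, and 181 and 441 in DKO. The 12 monocyte and macrophage markers summed to between 361 and 817 FPKM in Ctrl, 513 and 1010 in Tcf1KO, 254 and 629 in Id2KO, and 518 and 869 in DKO. In neither list was any marker at 0 in every library. Of the neutrophil list 12 of 12 markers had a lower mean in Id2KO than in Ctrl (median log2 difference -3.25), and of the monocyte list 9 of 12 (-0.44), with 0 of either called by limma. Erythroid markers (11 of 11 lower, median -2.02) and basophil and mast cell markers (8 of 9 lower, median -1.997) also moved with Fgl2 there, again with 0 called. From Id2KO to DKO, where Fgl2 was higher, the median difference was 1.28 for the neutrophil list (1 of 12 lower), 0.34 for the monocyte list (2 of 12 lower), 1.52 for the basophil list (1 of 9 lower) and 1.64 for the erythroid list (1 of 11 lower), with 0 called by limma. The conventional dendritic cell list, with 6 markers fitted, moved with Fgl2 too. Its median difference was -0.97 from Ctrl to Id2KO (5 of 6 lower) and 0.56 from Id2KO to DKO (2 of 6 lower), with 0 called by limma. In DKO the neutrophil sums lay below every Ctrl library and Fgl2 above every Ctrl library. The monocyte and macrophage sums and the conventional dendritic cell sums overlapped between DKO and Ctrl. The 9 markers of group 2 innate lymphoid cells summed to between 37.6 and 43.2 FPKM in Ctrl and 40.9 and 56.3 in Tcf1KO. In Id2KO they summed to between 18.9 and 22.0 FPKM, and in DKO to between 18.7 and 27.5. Of the 4 fitted, limma called 1 lower in Id2KO against Ctrl and 1 lower in DKO against Ctrl. The shares over all fitted genes, in either direction, were 0.178% and 0.145%. The part of any of these other marrow cells in either Fgl2 difference was not tested.

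**Figure D2:**
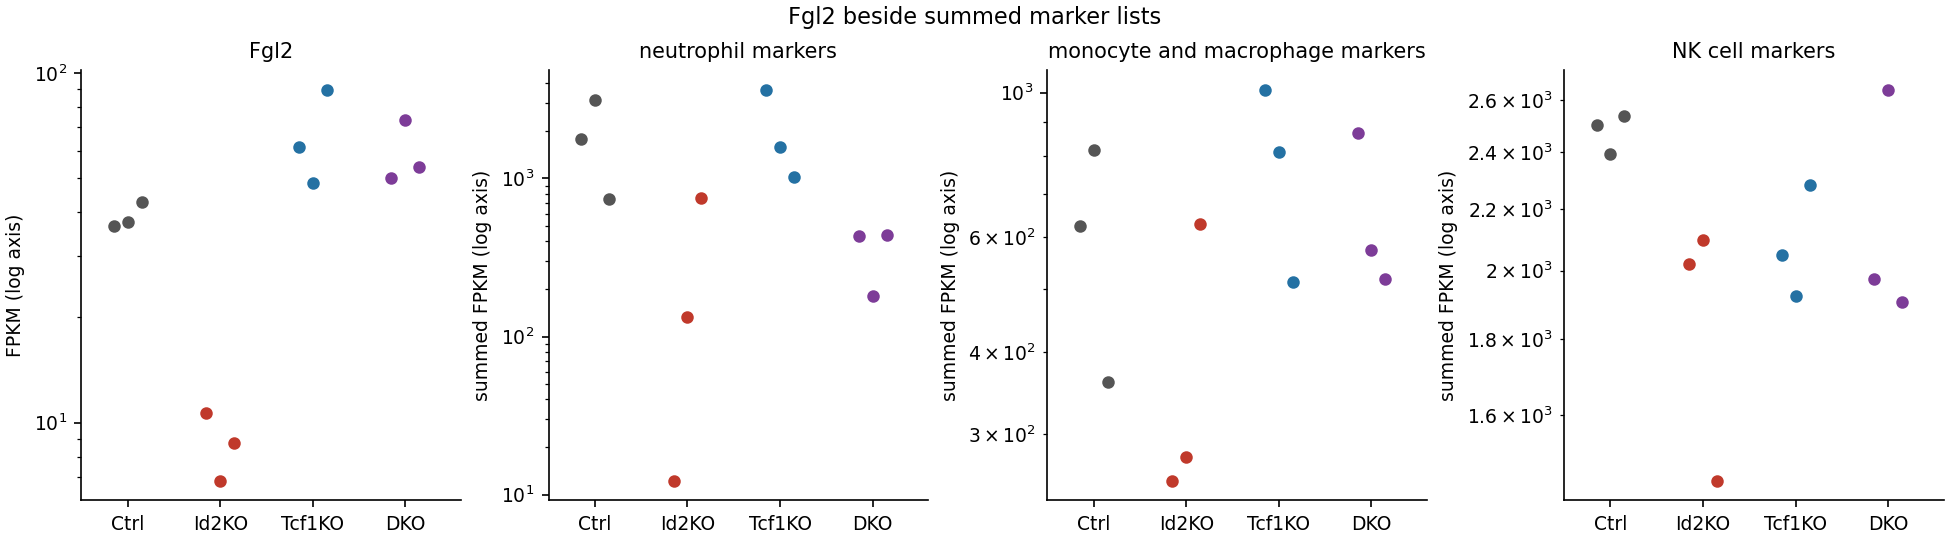
Fgl2 and the summed FPKM of the neutrophil, monocyte and macrophage, and NK marker lists (y axes, log scale) in the 12 libraries, with 1 point per library. The Fgl2 points of Id2KO (6.83 to 10.7 FPKM) lie under all others, while the marker sums of Id2KO reach into the Ctrl range for neutrophils (750 against 737) and monocytes (629 against 361), and not for NK cells.

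The partners of the fibrinogen-like proteins were taken from a list of 17 fibrinogen, thrombin and receptor genes, of which 8 could be fitted. limma called 0 of the 8 in each comparison. In Id2KO against Ctrl 1 of the 8 differences was positive, where 49.0% of all fitted genes were. Their median was -0.40, beside -0.01 over all fitted genes. The 8 include the Fc receptor genes Fcgr1, Fcgr2b, Fcgr3 and Fcgr4, and Fcgr1 is also in the monocyte and macrophage marker list. The part of other marrow cells in these differences was not tested. Lag3, the T and NK cell receptor that binds the relative Fgl1, was at 2.34 ± 1.03 FPKM in Ctrl and 0.871 ± 0.555 in Id2KO (adjusted p = 0.428, limma). Fgl1 itself is listed at 0 in all 12 libraries. F2rl1, a protease-activated receptor, was at 12.02 ± 2.69 FPKM in Ctrl and 19.9 ± 4.01 in Id2KO (adjusted p = 0.534, limma). F5, coagulation factor V, was at 2.28 ± 2.13 FPKM in Ctrl and 0.247 ± 0.334 in Id2KO (adjusted p = 0.539, limma).

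Plxnc1 (ENSMUSG00000074785, chromosome 10, 94790866 to 94944835, minus strand) encodes plexin C1, a cell surface receptor of semaphorin 7A that acts on adhesion and movement. Its pattern differs from the rest. Ctrl libraries held 13.4, 13.3 and 15.3 FPKM and Id2KO libraries 16.3, 20.1 and 16.4. Tcf1KO libraries held 11.8, 12.1 and 11.3 FPKM and DKO libraries 5.65, 7.72 and 4.91. The Id2KO libraries were above the Ctrl libraries by a small margin, and the DKO libraries were below all others.

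The group means of Plxnc1 were 14.0 ± 1.12, 17.6 ± 2.16, 11.7 ± 0.40 and 6.09 ± 1.46 FPKM in Ctrl, Id2KO, Tcf1KO and DKO. Against Ctrl, the log2 difference was 0.30 ± 0.17 for Id2KO and -1.10 ± 0.17 for DKO. DKO against Id2KO was -1.40 ± 0.17, DKO against Tcf1KO -0.86 ± 0.17 and the interaction -1.16 ± 0.24. For this gene the name "changed by Id2 loss" therefore describes less than 2 SE of difference, and its pattern is mainly a lower level when both genes are deleted, 2.30-fold below Ctrl and 2.88-fold below Id2KO.

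Of 27 plexin, semaphorin, neuropilin and integrin genes 9 could be fitted, and 1 was called, in DKO against Id2KO, where 0.121% of all fitted genes were called. Itga1, which encodes the integrin α1 subunit, part of another receptor of semaphorin 7A, rose from 1.02 ± 0.0298 FPKM in Id2KO to 7.12 ± 1.63 in DKO (log2 difference 1.99 ± 0.21, adjusted p = 0.0069, limma, higher in all 3 libraries). The call was lost without Id2KO 2 (adjusted p = 0.0571), without the 3 libraries of lowest weight (0.0623) and with only the compared groups, all by limma. Itga1 thus stood higher in DKO than in Id2KO where Plxnc1 stood lower. Its level was 2.30 ± 0.717 FPKM in Ctrl and 6.29 ± 0.857 in Tcf1KO, so it was also high where Tcf7 alone was deleted. limma called neither Tcf1KO against Ctrl (log2 difference 1.16 ± 0.21, adjusted p = 0.195) nor DKO against Tcf1KO (0.14 ± 0.21, adjusted p = 0.946). Sema4d, a semaphorin of lymphocytes, was at 11.8 ± 3.05 FPKM in Ctrl and 16.8 ± 0.825 in Id2KO (adjusted p = 0.379, limma), and Sema4b was at 3.503 ± 0.713 and 2.16 ± 0.628 (adjusted p = 0.426, limma). Sema7a, the ligand, had means of 0.191, 0.107, 0.353 and 0.479 FPKM in Ctrl, Id2KO, Tcf1KO and DKO and was too low to be fitted.

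Sult5a1 (ENSMUSG00000000739, chromosome 8, 123140192 to 123158315, minus strand) encodes a cytosolic sulfotransferase, an enzyme class that moves a sulfate group onto small molecules. It was close to silent outside Id2KO. Ctrl libraries held 0.0519, 0 and 0 FPKM, Tcf1KO libraries 0, 0 and 0, and DKO libraries 0.126, 0 and 0. Id2KO libraries held 4.02, 6.47 and 3.59 FPKM. In reads, Ctrl had 4 in all and DKO 9, each from a single library, Tcf1KO had 0, and Id2KO had 272, 437 and 297. Scaled to library size and with counting error only, Id2KO was 255-fold above Ctrl (95% interval 99.4 to 939), 110-fold above DKO (57.6 to 241) and at least 387-fold above Tcf1KO, where the bound uses 3 counts over the group. The intervals pool the libraries of each group and come from values that picked the gene, so they are no test.

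Plcd3 (ENSMUSG00000020937, chromosome 11, 103070304 to 103101658, minus strand) encodes phospholipase C δ3, which cuts a membrane phosphoinositide into the messengers inositol trisphosphate and diacylglycerol. Ctrl libraries held 0.190, 0.407 and 0.566 FPKM and Id2KO libraries 3.48, 4.63 and 2.23. Tcf1KO libraries held 0.0657, 0.0248 and 0.0228 FPKM and DKO libraries 0.185, 0.0390 and 0. The order was Id2KO, then Ctrl, then DKO and Tcf1KO, whose libraries overlapped. The reads summed to 117 in Ctrl, 12 in Tcf1KO, 1001 in Id2KO and 22 in DKO. By these reads Id2KO was 8.68-fold above Ctrl (7.16 to 10.6), 96.2-fold above Tcf1KO (54.8 to 187) and 44.7-fold above DKO (29.4 to 71.7). These intervals too pool libraries, and the Id2KO values picked the gene, so they are no test. Plcd3 thus differs from Sult5a1 in that Ctrl cells held a measurable level. Every Tcf1KO and DKO library was below every Ctrl library (0.185 against 0.190 FPKM at the closest), though limma did not call Tcf1KO against Ctrl (adjusted p = 0.999). The steps between FPKM values imply a counted length of 6501 bases for Plcd3, beside 3393 exon bases in the annotation used here. The non-coding RNA gene Gm26668 overlaps Plcd3 in part on the opposite strand, without sharing its exon bases. Whether reads of other genes enter the value of Plcd3 was not tested.

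On the log2(FPKM + 1) scale, Sult5a1 stood 2.45 ± 0.24 higher in Id2KO than in Ctrl and Plcd3 1.65 ± 0.25 higher. DKO against Id2KO was -2.42 ± 0.24 for Sult5a1 and -2.02 ± 0.25 for Plcd3, and the interactions were -2.39 ± 0.33 and -1.61 ± 0.36. Both genes were above the low-value filter through Id2KO alone, with 3 libraries at 1 FPKM or more there and 0 elsewhere, so a difference was a condition of being fitted at all. The 14 markers of T and NKT cells, several of which NK cells express, summed to between 1069 and 1218 FPKM in Ctrl, 1491 and 1982 in Tcf1KO, 1377 and 1834 in Id2KO, and 1940 and 2396 in DKO. Those sums were highest in DKO, where Sult5a1 and Plcd3 were near 0. They also moved with both genes from Ctrl to Id2KO, in that every Id2KO library was above every Ctrl library. Within that list, 5 of 14 markers had a lower mean in Id2KO than in Ctrl, with a median log2 difference of 0.25. Of the 14 markers limma called 1 higher in Id2KO than in Ctrl, where 0.178% of all fitted genes were called in either direction. The 8 markers of plasmacytoid dendritic cells, with none at 0 in every library, summed to between 21.2 and 52.0 FPKM in Ctrl, 26.1 and 40.2 in Tcf1KO, 46.5 and 66.2 in Id2KO, and 25.2 and 46.5 in DKO. These sums moved with Sult5a1 and Plcd3 in that every Id2KO library was above every Tcf1KO and DKO library (46.55 against 46.49 at the closest), with overlap between Id2KO and Ctrl. Only 3 of the 8 markers were fitted, and the shift of these was small. From Ctrl to Id2KO 1 of 3 was lower (median log2 difference 0.13). From Id2KO to DKO 2 of 3 were lower (median -0.11), with 0 called by limma in both comparisons. The part of these cells in the values of the genes high in Id2KO was not tested.

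The promoters of these enzyme genes are shown because Sult5a1 and Plcd3 had the most similar patterns of any pair among the 6. Each run is the 250 bases before the RefSeq start of the gene (GRCm38.p6), written 5′ to 3′ along the minus strand, chr8:123158281-123158530 for Sult5a1 and chr11:103101659-103101908 for Plcd3. All letters are in lower case because no searched motif was found in them.

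Sult5a1: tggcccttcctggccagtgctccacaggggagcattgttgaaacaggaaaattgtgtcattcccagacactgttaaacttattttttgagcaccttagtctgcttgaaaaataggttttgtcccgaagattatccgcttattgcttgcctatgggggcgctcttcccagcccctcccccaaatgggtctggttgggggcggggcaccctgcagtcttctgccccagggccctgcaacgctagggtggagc

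Plcd3: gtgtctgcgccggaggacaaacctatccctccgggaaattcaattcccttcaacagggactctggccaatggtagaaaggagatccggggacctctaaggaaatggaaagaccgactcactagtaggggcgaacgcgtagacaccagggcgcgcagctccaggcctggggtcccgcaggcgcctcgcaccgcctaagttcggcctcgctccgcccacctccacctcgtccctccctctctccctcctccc

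The motifs searched on both strands were CAGCTG and CACCTG, E-box forms bound by E proteins, and CTTTGA and CTTTGT, cores bound by TCF/LEF factors. No pair of these motifs can match the same bases on the same strand. RefSeq promoters of 300 bases, which add 50 bases after the start, were matched for 4 of the 6 genes (Fgl2, Sult5a1, Plcd3 and Plxnc1), and held 0 matches. Among 32851 mouse promoters of that length 32.9% held an E-box form and 31.2% a TCF/LEF core. These values say only that the letters are not in those windows. The GC content was 51.7% for Fgl2, 54.7% for Sult5a1, 62.3% for Plcd3 and 69% for Plxnc1, beside a median of 52.7% over all promoters.

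Other genes of sulfate transfer were read beside Sult5a1. Of 19 gene symbols listed for sulfotransferases and for the supply of the sulfate donor, 17 were matched to measured genes. Of those 7 were fitted, and limma called 0 in each comparison. The median difference of the 7 was -0.04 in Id2KO against Ctrl and 0.05 in DKO against Id2KO. Sult2b1, a sterol sulfotransferase, was at 1.44 ± 0.198 FPKM in Ctrl and 0.690 ± 0.314 in Id2KO (adjusted p = 0.46, limma). Slc35b2, which carries the sulfate donor into the Golgi, was at 2.79 ± 0.456 and 3.997 ± 0.575 FPKM (adjusted p = 0.55, limma), and Bpnt1, a phosphatase that clears the spent donor, at 3.90 ± 2.34 and 4.89 ± 0.840 (adjusted p = 0.788, limma).

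Around Plcd3, 32 genes of phospholipase C and phosphoinositide signalling were listed, 23 were fitted, and limma called 0 in each comparison. The median of the 23 differences was -0.01 in Id2KO against Ctrl and 0.01 in DKO against Id2KO. The sister isoforms were low: Plcd1 had means between 0.00886 (Id2KO) and 0.353 FPKM (DKO) and Plcd4 between 0.0195 (Tcf1KO) and 0.112 (DKO). Dgka, the kinase that removes diacylglycerol, was at 83.8 ± 3.36 FPKM in Ctrl and 148 ± 11.01 in Id2KO (adjusted p = 0.143, limma). Prkcb, a protein kinase C that diacylglycerol activates, was at 12.7 ± 0.951 and 8.21 ± 1.85 FPKM (adjusted p = 0.31, limma). Plcg2, the phospholipase C of NK receptor signals, was at 18.2 ± 3.41 and 13.4 ± 3.14 FPKM (adjusted p = 0.556, limma).

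Gm16288 (ENSMUSG00000085099, chromosome 5, 30240082 to 30240448, minus strand) is annotated as a processed pseudogene, a copy of a spliced RNA set back into the genome. Its 367 bases align to the RNA of Rps25, a protein of the small ribosomal subunit, with 93.8% identity over 372 columns, 18 mismatches and 5 gap columns. The first 99 bases of Gm16288 (chr5:30240350-30240448, minus strand) are set beside Rps25, from base 59 of its RNA, to show how close the copies are. Capitals mark the 4 mismatches.

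Gm16288: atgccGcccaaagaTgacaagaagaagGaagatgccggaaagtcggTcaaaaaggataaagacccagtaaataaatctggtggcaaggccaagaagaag

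Rps25: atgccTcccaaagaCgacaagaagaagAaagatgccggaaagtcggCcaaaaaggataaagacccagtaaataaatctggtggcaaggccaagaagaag

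A read of 76 bases, the length sequenced, often cannot separate such copies. Of the 292 windows of 76 bases in Gm16288, 38 occur letter for letter in RNAs of other genes, and 157 lie within 2 mismatches of one. With Rps25 alone 20 windows are identical and 121 lie within 2 mismatches. The value of Gm16288 is uncertain for that reason, and it rests on few reads.

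Gm16288 reads in libraries 1, 2 and 3 were 1, 4 and 3 in Ctrl and 15, 18 and 20 in Id2KO. Tcf1KO libraries had 7, 10 and 13 reads and DKO libraries 5, 3 and 4. As FPKM, Ctrl libraries held 0.168, 0.780 and 0.501 and Id2KO libraries 2.87, 3.46 and 3.13. Every Id2KO library was above every other, Tcf1KO came next at 1.36, 1.47 and 1.75 FPKM, and DKO (0.910, 0.518 and 0.764) overlapped with Ctrl. The log2 differences were 1.505 ± 0.21 for Id2KO against Ctrl, -1.27 ± 0.21 for DKO against Id2KO, -0.55 ± 0.21 for DKO against Tcf1KO and -2.05 ± 0.30 for the interaction.

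Rps25 was at 506 ± 94.6 FPKM in Ctrl, 485 ± 52.3 in Tcf1KO, 701 ± 79.9 in Id2KO and 640 ± 71.7 in DKO. limma did not call its difference between Id2KO and Ctrl (log2 difference 0.48 ± 0.16, adjusted p = 0.349). The reads of Gm16288 were 0.0503% of those of Rps25 in Ctrl, 0.169% in Tcf1KO, 0.243% in Id2KO and 0.0610% in DKO. Their ratio was thus not the same in the 4 groups, and whether misplaced Rps25 reads contribute was not tested.

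Gm17218 (ENSMUSG00000091078, chromosome 17, 26620358 to 26625100, minus strand) is annotated as an antisense RNA within the span of Ergic1, with 0 of its exon bases shared with exons of Ergic1 and no close copy among the annotated RNAs. Ctrl libraries held 0, 0 and 0 reads and Id2KO libraries 16, 26 and 35. Tcf1KO libraries held 7, 3 and 7 reads and DKO libraries 9, 5 and 3. In FPKM, Id2KO stood at 2.74, 4.47 and 4.91, Tcf1KO at 1.21, 0.394 and 0.845, and DKO at 1.47, 0.772 and 0.513. Id2KO was above all other libraries, Tcf1KO and DKO overlapped, and Ctrl was below the rest. Against Ctrl, with 3 counts over the group as the bound, Id2KO was at least 26.1-fold higher, Tcf1KO at least 4.99-fold and DKO at least 5.85-fold.

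On the log2 scale Gm17218 stood 2.31 ± 0.27 higher in Id2KO than in Ctrl, DKO against Id2KO was -1.40 ± 0.27, and the interaction was -2.23 ± 0.38. With 3 libraries at 1 FPKM or more in Id2KO, 1 each in Tcf1KO and DKO and 0 in Ctrl, this gene too passed the low-value filter only through its Id2KO libraries. In DKO it was 0.91 ± 0.27 above Ctrl without overlap, where the DKO libraries of Sult5a1 overlapped with Ctrl.

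**Figure D3:**
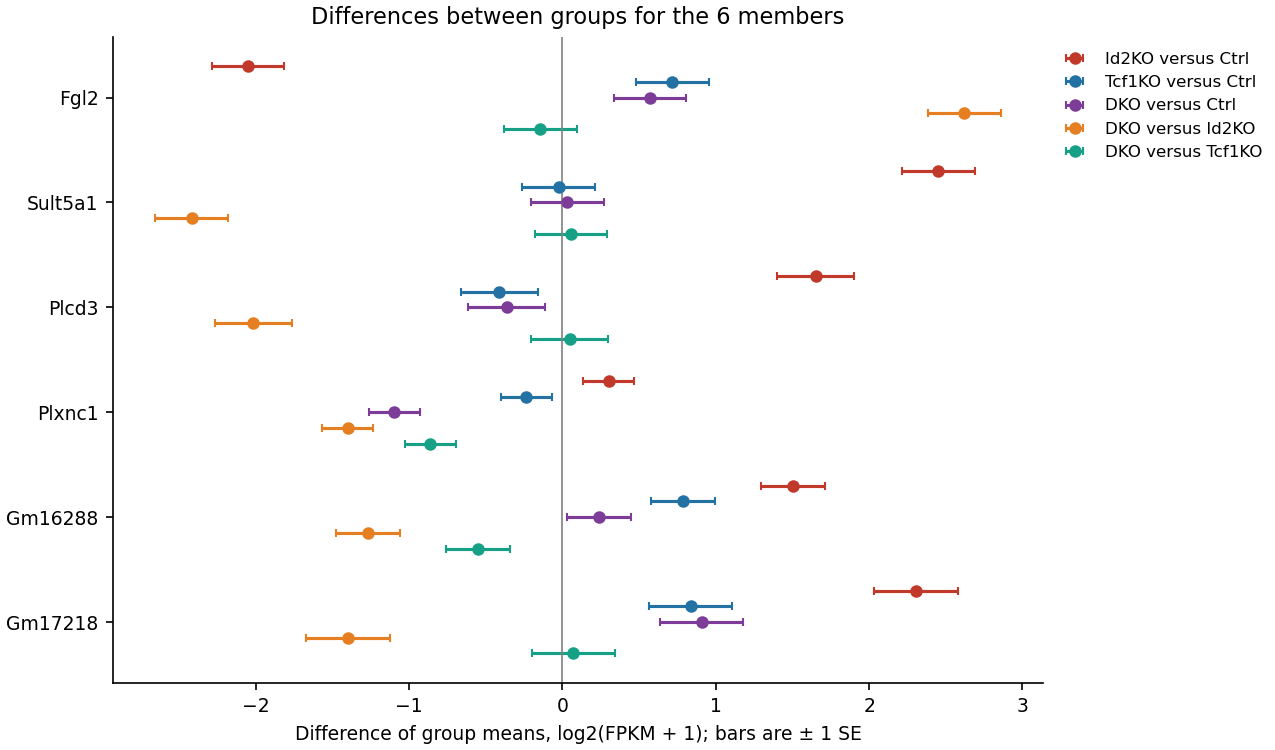
Differences of group means for the 6 genes on the log2(FPKM + 1) scale (x axis), with 1 point per comparison and bars of ± 1 SE. Id2KO against Ctrl and DKO against Id2KO point in opposite directions for all 6 genes, as their choice implies, and DKO against Tcf1KO lies near 0 for Fgl2 (-0.14), Sult5a1 (0.06), Plcd3 (0.05) and Gm17218 (0.07).

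Counted over libraries, Id2KO and Ctrl did not overlap for any of the 6: Fgl2 was lower and the other 5 were higher, where 6.75% and 7.11% of all fitted genes separate in those directions. DKO and Id2KO separated for all 6 as well, with Fgl2 higher (6.34% of all fitted genes) and 5 lower (8.32%). These counts follow from how the genes were picked. DKO against Ctrl divided them: Fgl2 and Gm17218 were higher without overlap (6.28% of all fitted genes), Plcd3 and Plxnc1 were lower (7.27%), and Sult5a1 and Gm16288 overlapped. Relative to Tcf1KO, Plxnc1 and Gm16288 were lower in DKO without overlap (6.9%), and the other 4 overlapped, so that 0 were higher (5.74%). The comparisons share libraries, so they are not separate lines of evidence.

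The comparison of Tcf1KO with Ctrl asks how the genes stand when Tcf7 alone is deleted. limma called 0 of the 12384 fitted genes here (0%), with 594 at an unadjusted p under 0.05, and voom on the recovered reads called 4. None of the 6 genes was called. Fgl2, Gm16288 and Gm17218 were higher in all 3 Tcf1KO libraries than in any Ctrl library (4.96% of all fitted genes), and Plcd3 and Plxnc1 were lower (5.73%). Fgl2 differed by 0.72 ± 0.24 (95% interval 0.20 to 1.24, adjusted p = 0.787, limma). Gm16288 differed by 0.79 ± 0.21 (0.32 to 1.25, adjusted p = 0.516, limma) and Gm17218 by 0.84 ± 0.27 (0.24 to 1.44, adjusted p = 0.787, limma). Their intervals, which are not adjusted for the number of genes, lie above 0, and the adjusted p does not pass. The Ctrl libraries helped to pick these genes, and Gm17218 had 0 reads in all of them. The intervals are therefore not independent of that choice.

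Plcd3 differed between Tcf1KO and Ctrl by -0.41 ± 0.25 (95% interval -0.96 to 0.14) and Plxnc1 by -0.24 ± 0.17 (-0.60 to 0.13), each with adjusted p = 0.999 by limma. Sult5a1 differed by -0.02 ± 0.24 (-0.55 to 0.50, adjusted p = 0.9998, limma), with the groups at 4 reads and 0 reads. An exact two-sided permutation test gave p = 0.1 for the 5 genes without overlap, the smallest value that 3 against 3 libraries allow, and p = 1 for Sult5a1. Over 128 refits with other settings or with a library left out, the adjusted p of the 6 genes ranged from 0.195 to 1 by limma.

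For 5 genes the direction in Tcf1KO against Ctrl set beside that in Id2KO against Ctrl was as follows. Fgl2 was higher in Tcf1KO and lower in Id2KO, and Plcd3 and Plxnc1 were lower in Tcf1KO and higher in Id2KO. Gm16288 was higher in each group with 1 gene deleted, at 1.53 ± 0.204 FPKM in Tcf1KO and 3.15 ± 0.292 in Id2KO, and was at 0.731 ± 0.198 in DKO. Gm17218 was likewise above Ctrl in each deleted group, at 0.818 ± 0.411 FPKM in Tcf1KO, 0.917 ± 0.493 in DKO and 4.04 ± 1.14 in Id2KO. The comparisons share the Ctrl libraries, and the contrast of these directions was not tested.

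The regulators themselves were read from a list of 17 Id, E protein and TCF/LEF genes, of which 13 were fitted. In Id2KO against Ctrl, where 0.178% of all fitted genes were called, 2 rose and 1 fell. Id3, an inhibitor of the same E proteins as Id2, rose from 2.095 ± 0.726 to 17.8 ± 7.24 FPKM (log2 difference 2.56 ± 0.33, adjusted p = 0.0102, limma). Without Ctrl 1 its adjusted p was 0.0506, and without the 3 libraries of lowest weight 0.0970, by limma, and the call was also lost with only the compared groups. Tcf7 rose by 1.04 ± 0.16 (adjusted p = 0.0279, limma), in all 3 libraries, a call kept in 4 of 12 fits that each left out 1 library (without Ctrl 3, Tcf1KO 1, DKO 1 or DKO 3) and lost without the variance trend, with only the compared groups and without the 3 libraries of lowest weight (0.123, limma). Id2 fell by 3.00 (SE 0.16, adjusted p = 1.52e-05, limma) and was called in all 12 such fits.

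In DKO against Ctrl, where 0.145% of all fitted genes were called, Id3 rose (log2 difference 2.05 ± 0.33, adjusted p = 0.0468, limma) and Id2 fell by 1.82 (adjusted p = 0.0027, limma). The Id3 call was kept in 2 of 12 fits that each left out 1 library, those without Id2KO 2 or Tcf1KO 1 (adjusted p up to 0.222 by limma), and was lost with a pseudocount of 0.1, no filter, only the compared groups, voom (0.0864) and without the 3 libraries of lowest weight (0.272, limma). The Id2 call was kept in 12 of 12, though not without the 3 libraries of lowest weight (0.109, limma) or with only the compared groups. Id3 thus stood at 11.8 ± 3.10 FPKM in DKO, where Sult5a1 and Plcd3 were near 0 and Fgl2 was above Ctrl. In DKO against Id2KO the regulator list held 1 call, the rise of Id2 given with the check of the deletions. In the interaction 0 genes of the lists were called by limma (0% of all fitted genes), with 735 genes at an unadjusted p under 0.05, and a fit without the variance trend called 1 gene of the whole table.

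Similar patterns were sought among the 12384 fitted genes, as the smallest root mean square (RMS) difference over the 12 libraries between log2(FPKM + 1) values centred on each gene's mean. Nearest to Fgl2 were Klrb1b (0.487), an inhibitory NK receptor, Tmsb15a (0.578), a thymosin that binds actin, and Cxcr6 (0.594), a chemokine receptor, beside 1.13 for Fgl2 about its own mean. Klrb1b was at 33.5 ± 6.62 FPKM in Ctrl, 27.8 ± 6.05 in Tcf1KO, 4.63 ± 1.88 in Id2KO and 23.5 ± 3.26 in DKO. It shared the low level of Fgl2 in Id2KO, with DKO means below Ctrl rather than above it.

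Sult5a1 and Plcd3 were each other's nearest gene, at an RMS difference of 0.308. For both the next were Gpr25, an orphan receptor (0.478 from Sult5a1 and 0.326 from Plcd3), and Gm22753, a small nuclear RNA gene (0.527 and 0.350). Gpr25 was at 1.67 ± 0.831 FPKM in Ctrl, 0.692 ± 0.291 in Tcf1KO, 6.44 ± 2.71 in Id2KO and 1.32 ± 0.04998 in DKO. On this measure, low genes that are seen mostly in 1 group lie close to each other.

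Nearest to Plxnc1 were S100a10 (0.199), a partner of annexin A2, Taf4 (0.244), a subunit of the general transcription factor TFIID, and Cdc25b (0.246), a phosphatase that activates cell cycle kinases. S100a10 was at 111 ± 20.5, 125 ± 34.7, 88.0 ± 7.08 and 59.8 ± 16.02 FPKM in Ctrl, Id2KO, Tcf1KO and DKO, the same order as Plxnc1. Gm16288 was nearest to Ssr2 (0.316), a subunit of the translocon-associated complex, ENSMUSG00000093337 (0.334), an ID with no symbol in the annotation, and Snrpd2 (0.335), a core protein of the splicing particles. Ssr2 was at 20.5 ± 2.28, 42.8 ± 7.90, 26.0 ± 2.75 and 23.5 ± 6.23 FPKM in the same groups.

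Gm17218 was nearest to Gm16288 (0.444), then to Nsg2 (0.464), a vesicle protein known from neurons, and Clip3 (0.476), a microtubule-linked protein. Nsg2 was at 6.16 ± 0.834 FPKM in Ctrl, 12.2 ± 3.26 in Tcf1KO, 33.4 ± 4.76 in Id2KO and 19.5 ± 3.01 in DKO. Like Gm17218 it stood above Ctrl in all 3 deleted groups. The likeness is a description over libraries that share their groups, and no test was made of it.

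**Figure D4:**
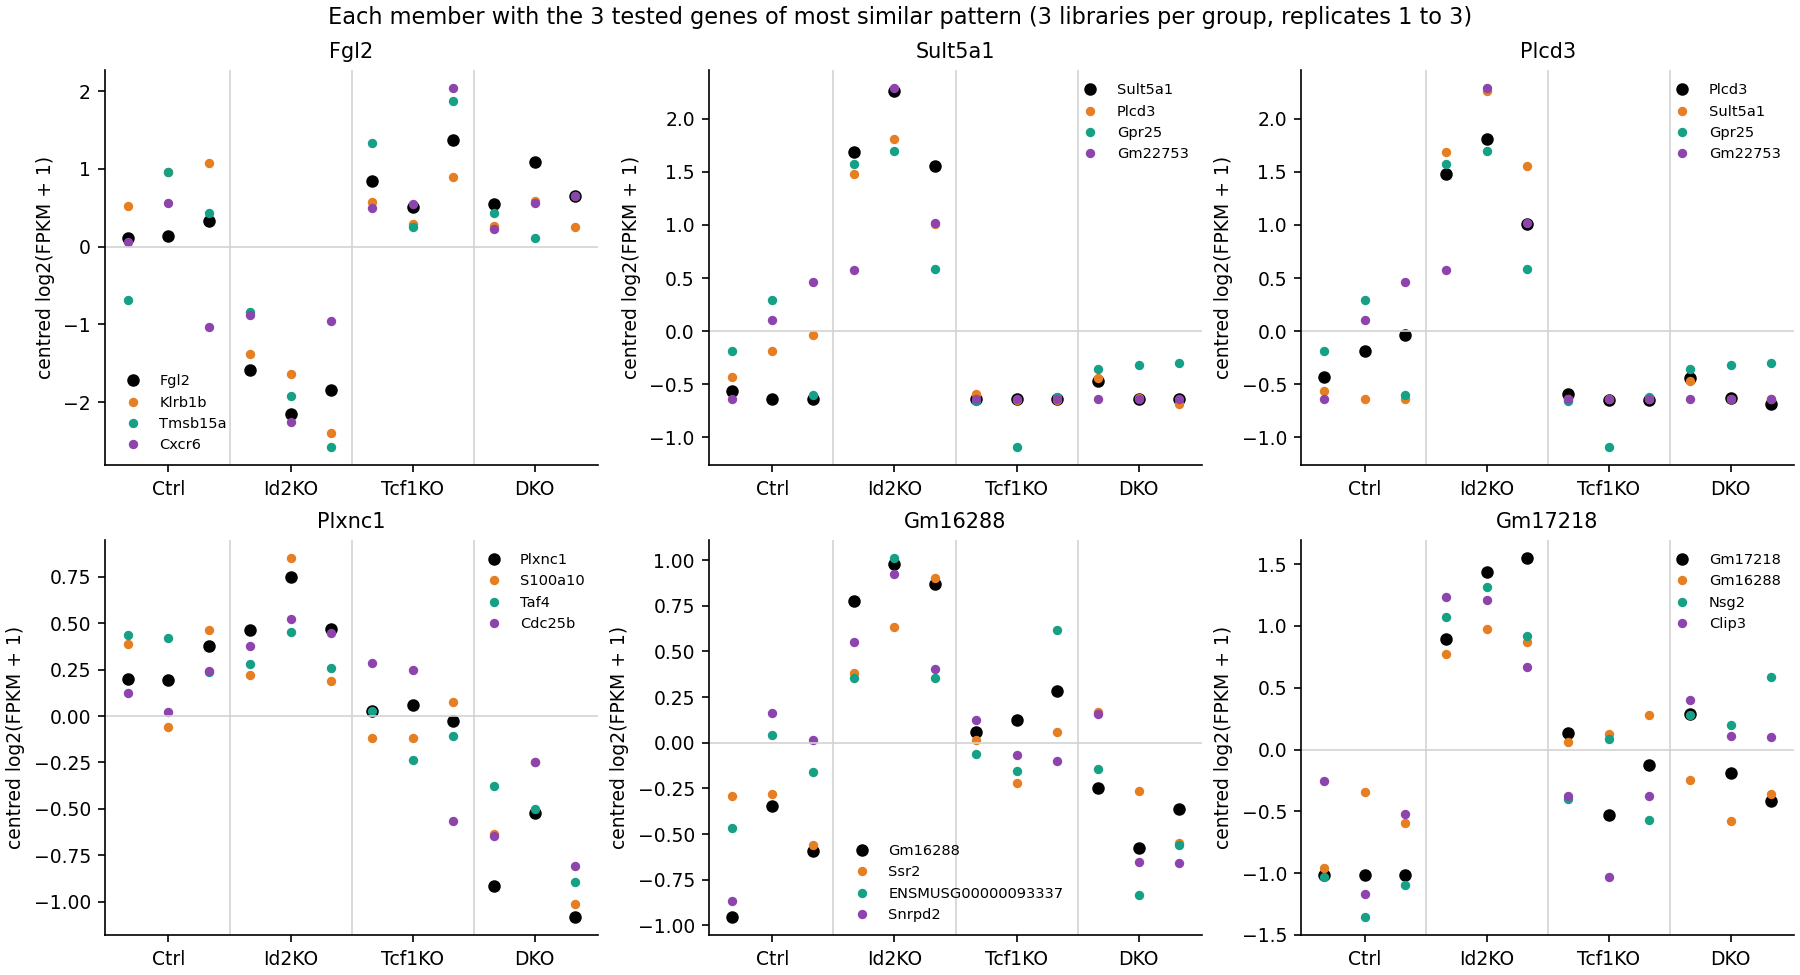
Log2(FPKM + 1) centred on each gene's mean over 12 libraries (y axis) for each of the 6 genes (black) and the 3 fitted genes with the smallest RMS difference from it (colours), with libraries ordered by group and replicate (x axis). The Klrb1b points follow those of Fgl2 within 0.487 RMS, and S100a10 those of Plxnc1 within 0.199.

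The neighbours on the chromosome were read to see whether a wider region moved. Of the genes that overlap one of the 6 or lie nearest on either side, 11 were fitted. limma called 1 of them in 1 comparison, Id2KO against Ctrl, where 0.178% of all fitted genes were called. Drc1, a part of the dynein regulatory complex of motile cilia, lies 40940 bases from Gm16288. It rose from 0.647 ± 0.566 FPKM in Ctrl to 11.3 ± 6.24 in Id2KO (log2 difference 2.82 ± 0.42, adjusted p = 0.0274, limma), in all 3 libraries. In Tcf1KO it was at 0.650 ± 0.676 FPKM and in DKO at 2.40 ± 0.907, and DKO against Id2KO missed the threshold (-1.75 ± 0.42, adjusted p = 0.172, limma). The call was lost without Ctrl 2, Ctrl 3, Id2KO 1 or Id2KO 2 (adjusted p up to 0.123, limma), in voom (0.0747) and without the 3 libraries of lowest weight (0.0970, limma). It was lost as well with a pseudocount of 0.1, no filter, a filter at FPKM 5 and only the compared groups.

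Cpne7, a copine that binds membranes with calcium, ends 5010 bases from the end of Sult5a1 and is read from the opposite strand. It stood at 3.19 ± 1.63 FPKM in Ctrl, 0.978 ± 0.108 in Tcf1KO, 6.34 ± 1.68 in Id2KO and 1.49 ± 0.339 in DKO. It was highest in Id2KO, as Sult5a1 was, but limma called no difference (adjusted p = 0.357 for Id2KO against Ctrl and 0.11 for DKO against Id2KO). Acbd4, whose start lies 24 bases from that of Plcd3 on the opposite strand, had means of 0.313, 0.579, 0.338 and 0.204 FPKM in Ctrl, Id2KO, Tcf1KO and DKO and was too low to be fitted. Cep83, a centriole protein, ends 13 bases from the end of Plxnc1 on the opposite strand. It stood at 24.1 ± 1.52, 25.9 ± 1.48, 20.4 ± 4.88 and 14.1 ± 2.76 FPKM in Ctrl, Id2KO, Tcf1KO and DKO, in the same order as Plxnc1 (DKO against Id2KO -0.85 ± 0.18, adjusted p = 0.135, limma). Whether the counting used strand is not given in the sources used here, so reads near that shared end cannot be told apart.

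Of the 6 genes, 3 lie inside the span of a gene on the opposite strand without sharing an exon base with it. If strand was not used, reads of both genes there cannot be told apart. Fgl2 lies in Ccdc146, at 1.01 ± 0.578 FPKM in Ctrl and 0.540 ± 0.446 in Id2KO. Gm16288 lies in Selenoi, which makes a membrane phospholipid, at 1.57 ± 0.402 FPKM in Ctrl, 1.92 ± 0.245 in Tcf1KO, 2.77 ± 0.745 in Id2KO and 2.87 ± 0.687 in DKO. Gm17218 lies in Ergic1, a cargo protein between endoplasmic reticulum and Golgi, at 2.08 ± 0.333 FPKM in Ctrl, 2.91 ± 0.141 in Tcf1KO, 3.10 ± 0.638 in Id2KO and 2.91 ± 0.441 in DKO. limma called none of these hosts. Selenoi and Ergic1 held DKO levels close to their Id2KO levels, where Gm16288 and Gm17218 were lower in DKO than in Id2KO. Sult5a1 also lies within the long read-through model Gm20388, which is listed at 0 in all 12 libraries.

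**Figure D5:**
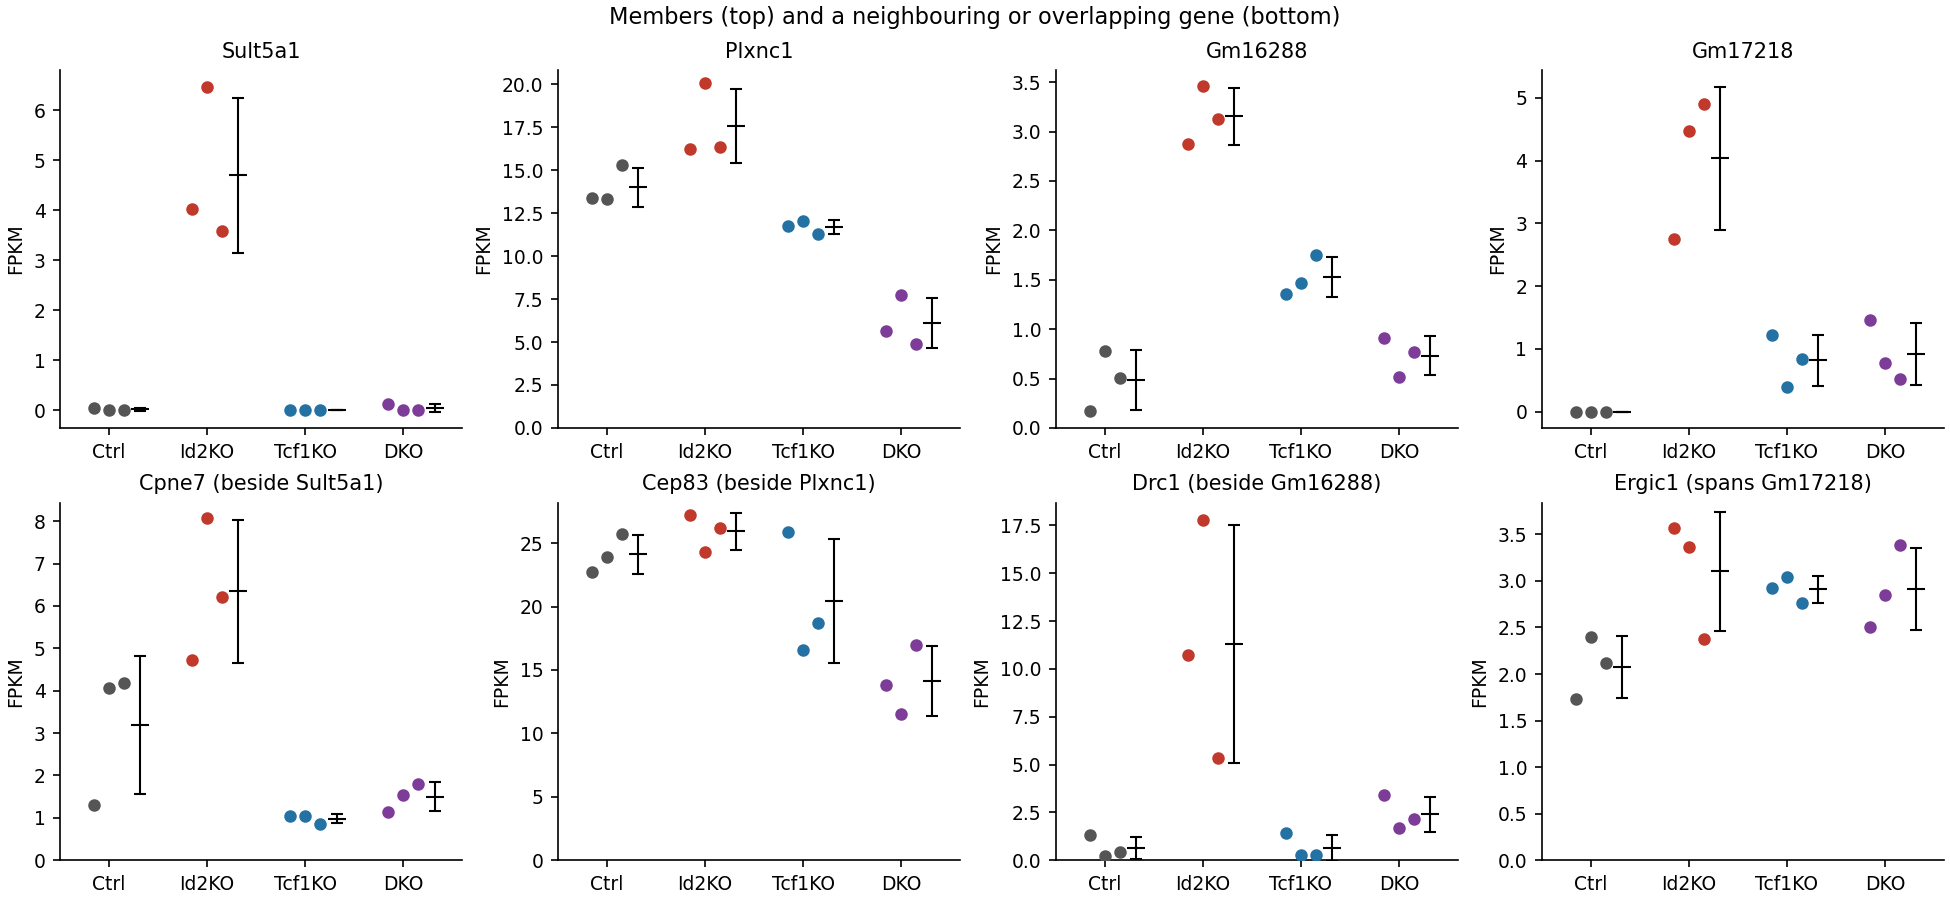
FPKM (y axes, linear) of Sult5a1, Plxnc1, Gm16288 and Gm17218 (top) and of a neighbouring or overlapping gene of each (bottom) in the 4 groups, with 1 point per library and bars of mean ± SD over 3 libraries. Drc1 is at 11.3 ± 6.24 FPKM in Id2KO and at 3.41 or less in every other group's libraries, and Ergic1 lies between 1.73 and 3.57 FPKM throughout.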

How the data were processed

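RNA of sorted bone marrow NK cells was prepared with a Nugen Ovation Ultralow kit and sequenced on a NextSeq500, per the labels' protocols. The authors deposited FPKM for 37991 genes. Trimmomatic 0.33, TopHat2 2.1.0, HTSeq 0.6.1, edgeR and mm10 are named in the submitters' processing notes, with no version for edgeR. How FPKM was computed and whether strand was used is not given in the sources used here.

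Genes that reached FPKM 1 in 3 or more libraries (12384) were fitted as log2(FPKM + 1) with group as the term in limma 3.58.1 (R 4.3.3, eBayes with a variance trend, two-sided, all 12 libraries). p-values were adjusted by Benjamini-Hochberg over all fitted genes, with a threshold of 0.05. On simulated data with independent noise, the fit was checked only for the size of differences planted in Tcf1KO. That run does not check the calls on these data. Whole reads were recovered from the FPKM steps for all 23707 genes above 0, within 0.001 reads, widened to at most 0.05; 95% intervals of ratios of reads cover counting error only. Positions and RNAs came from GENCODE M21 (GRCm38), which matched 32919 IDs, and promoters from RefSeq. RNAs were aligned with BLAST+ 2.17.0, and tables and figures made with matplotlib 3.10.9, numpy 2.4.6 and pandas 2.3.3 in Python 3.11.15.

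The 6 genes, the gene and marker lists and the settings were chosen with earlier results of these data known. Named beside the 6 genes are Id2 and Tcf7, the 3 fitted genes most like each, nearest and overlapping genes, and up to 3 genes of each list (called ones by adjusted p, then by p in Id2KO against Ctrl). Fgl1, Sema7a, Plcd1, Plcd4 and Rps25 are named for their role. Alternatives were other pseudocounts, filters, scalings, variance settings, the replicate number as a block, array weights, fits of only the compared groups, voom on recovered reads, and leaving out libraries.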

Additional observations from a re-analysis of the deposited data

How the results depend on the processing

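Over 762 refits of the log2 differences of the 6 genes, 47 were marked as moved beyond the spread between libraries. Of these, 17 were with a pseudocount of 0.1, 12 with one of 0.5 and 18 in voom, where low genes differ by more. The other 715 were marked as the same, though not all stayed within that spread. Sult5a1 in Tcf1KO against Ctrl, marked as the same, went from -0.02 to -1.24 in voom. Id2KO against Ctrl, DKO against Id2KO and the interaction kept their sign for all 6 genes in every refit that gave a value. Values in these comparisons picked the genes, so the kept signs follow from that choice and add no support. Sign changes were limited to differences near 0: DKO against Tcf1KO for Fgl2 (-0.35 to 0.09), Plcd3 (-0.05 to 0.21) and Gm17218 (-0.12 to 0.23), and DKO against Ctrl for Sult5a1 (-0.02 to 0.39). With a filter at FPKM 5, Sult5a1, Plcd3, Gm16288 and Gm17218 gave no value. Limma called none of the 6 in Tcf1KO against Ctrl under any setting. The counts of genes called over the whole table were less stable, and their cause was not tested except that fits of only the compared groups hold fewer libraries. Id2KO against Ctrl gave 22 calls, 2 with only the compared groups, 8 without the 3 libraries of lowest weight (Ctrl 2, Id2KO 3 and DKO 3) and 13 to 27 when 1 library was left out. Tcf1KO against Ctrl gave 0 calls, 1 with no filter, 1 with only the compared groups, 4 in voom, 4 without those 3 libraries and 0 to 3 when 1 library was left out (3 without Id2KO 3). DKO against Ctrl gave 18 calls, 4 with no filter, 1 with only the compared groups, 0 without those 3 libraries and 1 to 27 when 1 library was left out (1 without Ctrl 1, Ctrl 2 or DKO 3). DKO against Id2KO gave 15 calls, 8 with a filter at FPKM 5, 0 with only the compared groups and 2 to 31 when 1 library was left out (2 without Id2KO 2, 31 without Id2KO 3). The interaction gave 0 calls, 1 without the variance trend and 0 to 1 when 1 library was left out (1 without DKO 1); no fit of only the compared groups applies to it. With the replicate number as a block, the calls were 22, 0, 19, 15 and 0 in the same order, and 0 of the 6 genes. Same-numbered libraries deviated together with correlations of -0.14 to 0.27 over 18 pairs, 6 of them over 0.1. Since not every pair was over 0.1 and the labels name nothing that a number shares, the numbers were not taken to pair the libraries. That 9 of 12 libraries were nearest to one with their own number is a hint of pairing from the data, not the design. Of the calls named in the text, the block ended that of Id2 in DKO against Id2KO (adjusted p = 0.0534, limma) and no other. Depth limits Gm16288 and Gm17218, with 8 and 0 reads in Ctrl, and Sult5a1 outside Id2KO.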
